A study of Homo sapiens with 27 samples.

Results

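The genes described here are 32 targets of the tumour suppressor p53 whose products act in cell cycle arrest, feedback on p53, DNA repair, metabolism and related processes, chosen by name and found through the gene symbol or transcript of each array probe. All 32 were on the arrays and all passed the filter on dim probes, among 17268 genes tested for 8 compounds and 14431 for the ninth. RNA came from HepG2 cells, a human liver cancer line, after 48 h with 1 of 9 polycyclic aromatic hydrocarbons, compounds of fused aromatic rings formed when organic matter burns incompletely. The compounds were, roughly from small to large, naphthalene (NP), phenanthrene (PH), the isomers chrysene (CHR) and benzo[a]anthracene (BA), the alkylated 3-methylcholanthrene (3MC), the isomers benzo[a]pyrene (BaP) and benzo[k]fluoranthene (BF), dibenzo[a,h]anthracene (DBA), and an indenopyrene abbreviated IND, indeno[1,2,3-c,d]pyrene. Each compound had 3 Agilent arrays, on which RNA of treated cells carried the Cy5 dye and RNA from DMSO-treated cells, the solvent control, carried Cy3. The value used throughout is the log2 ratio of compound over DMSO, so that 1 is a doubling relative to DMSO and negative values are lower with the compound. The dyes were never exchanged, which leaves any gene-specific dye bias within the ratios. Doses are not in the labels, nor is it stated whether replicate arrays came from different cultures or whether compounds had DMSO RNA in common, so p-values measure only the spread between these arrays. In bulk RNA, a change in some cells and a smaller change in every cell cannot be told apart.

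p53 is a transcription factor that is kept scarce by the ubiquitin ligase MDM2 and accumulates when DNA is damaged or cells are otherwise stressed. It then binds near its target genes, which halt the cell cycle, repair DNA, adjust metabolism or start cell death, and it raises its own inhibitors, which closes a negative feedback loop. Polycyclic hydrocarbons can be turned by cytochrome P450 enzymes of the liver into products that bind DNA.

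All 10 hepatocyte markers tested, albumin among them, stood above background in DMSO on all 24 arrays of the 8 compounds that shared a platform. Of the markers of other cell types, 1 of 4 for leukocytes, 0 of 3 for endothelium and 1 of 4 for fibroblasts did so. Others came close, such as CD3E and VWF, each above background on 23 of the 24 arrays. Median DMSO signals of these markers were 104.5 to 813.5 intensity units, against 11508 to 57590 for the hepatocyte markers. The hepatocyte markers also moved with the compounds: 10 of 10 fell with BF (median log2 ratio -2.08), 9 with IND (-1.60), 8 with BaP (-0.94), 5 with CHR (-0.66, with 2 higher) and 5 with DBA (-0.41, with 1 higher). With NP 4 fell and 2 rose (0.0089), with 3MC 3 fell and 2 rose (0.15), with PH 2 fell (0.0053) and with BA 1 fell (-0.41). The shares of all genes that rose and fell with each compound are given below. The part of these marker changes in the results below was not tested. The DBA, 3MC and NP arrays, deposited in a separate file layout, were dim, with array medians of 70 to 164 intensity units in Cy5 against 341 to 1535 elsewhere. On the DBA arrays 22457 to 24625 of 41675 probe spots were flagged as not found, and on the 3MC and NP arrays 11284 to 14333. Elsewhere 287 to 4730 were so flagged. Spots with this flag were kept. Across genes, which are not independent replicates, replicate arrays correlated at 0.905 or above for all compounds but BA. The array labelled BA array 1 correlated at 0.18 and 0.13 with BA arrays 2 and 3, and CYP1A1, a detoxifying enzyme induced by such compounds, had a log2 ratio of 0.58 there against 6.25 and 6.23 on BA arrays 2 and 3. Results on BA are therefore given with and without it.

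To show the kind of sequence through which p53 acts on such genes, promoters were taken from RefSeq (GRCh38.p14, 250 bases before to 50 after each start), which held 27 of the 32 genes. The p53 consensus, a pair of adjoining decamers with no spacer, was searched with at most 3 mismatches over its 20 bases; it is its own reverse complement, so the search covers both strands. It was found in 9 of the 27 genes, and in 6.39% of all 27305 genes in the table. With at most 2 mismatches it was found in MDM2, DDB2 and AEN, and in 0.82% of all genes. A match describes letters and is not a site shown to be bound. The stretches below hold the matches in capitals, for the 3 genes with the closest ones and for 3 whose ratios are described below. MDM2 lies at chr12:68808918-68808985 on the plus strand and holds a pair of separate matches, DDB2 at chr11:47214964-47214993 (plus), AEN at chr15:88621301-88621330 (plus), FDXR at chr17:74872991-74873020 (minus), RPS27L at chr15:63157522-63157551 (minus) and SESN1 at chr6:109009013-109009042 (minus).
MDM2: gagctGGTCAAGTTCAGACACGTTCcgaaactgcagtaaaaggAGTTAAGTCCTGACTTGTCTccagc
DDB2: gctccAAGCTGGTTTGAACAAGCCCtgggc
AEN: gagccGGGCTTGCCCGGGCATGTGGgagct
FDXR: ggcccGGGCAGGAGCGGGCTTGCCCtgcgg
RPS27L: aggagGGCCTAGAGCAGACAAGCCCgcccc
SESN1: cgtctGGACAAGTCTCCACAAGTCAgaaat

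The 32 targets rose together most widely with CHR and BaP. With CHR 30 of 32 rose and 0 fell, where a gene counted as changed at an adjusted p under 0.05 (limma, Benjamini-Hochberg over all genes tested) and at least 1.5-fold; over all genes 11.7% rose and 12.3% fell. With BaP 30 rose and 0 fell, against 15.1% and 10% of all genes. BF raised 20 and lowered 2, among 16.0% and 20.4% of all genes. 3MC raised 18 and lowered 1, with 3.68% and 7.46% of all genes, and DBA raised 18 and lowered 1, with 3.08% and 7.25%. The DBA count depended on the processing. Median centring in place of loess gave 25 higher and 1 lower with DBA, among 1602 and 647 of all genes. Plain background subtraction gave 23 and 2, among 1341 and 2082. With 3MC the same settings gave 18 and 1, among 764 and 1252 of all genes, and 20 and 1, among 1120 and 1702. IND raised 13 and lowered 2, with 10.4% and 13.1% of the genes of its own platform.

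PH raised 7 and lowered 8 of the 32, with 10.6% of all genes higher and 7.89% lower. NP raised 3 and lowered 5, with 6.72% and 12.6% of all genes, and under median centring in place of loess it raised 1 and lowered 8. BA raised 6 and lowered 0, with 2.04% and 3.10% of all genes. Without BA array 1 the BA count was 17 higher and 0 lower, with 4.53% and 5.94% of all genes. The 0 counts of genes that fell also held at an unadjusted p under 0.05 with no fold required for BA and CHR, while for BaP 1 gene was then lower. At the adjusted p alone, with no fold required, PH raised 9 and lowered 14 of the 32, with 35.6% and 28.8% of all genes, and NP raised 8 and lowered 13, with 28.4% and 30.0%. BA then raised 29 and lowered 0, with 24.7% and 22.7% of all genes, and 3MC raised 27 and lowered 3, with 24% and 24.8%. IND raised 19 and lowered 6, with 37.4% and 35.9% of the genes of its platform.

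**Figure D1:**
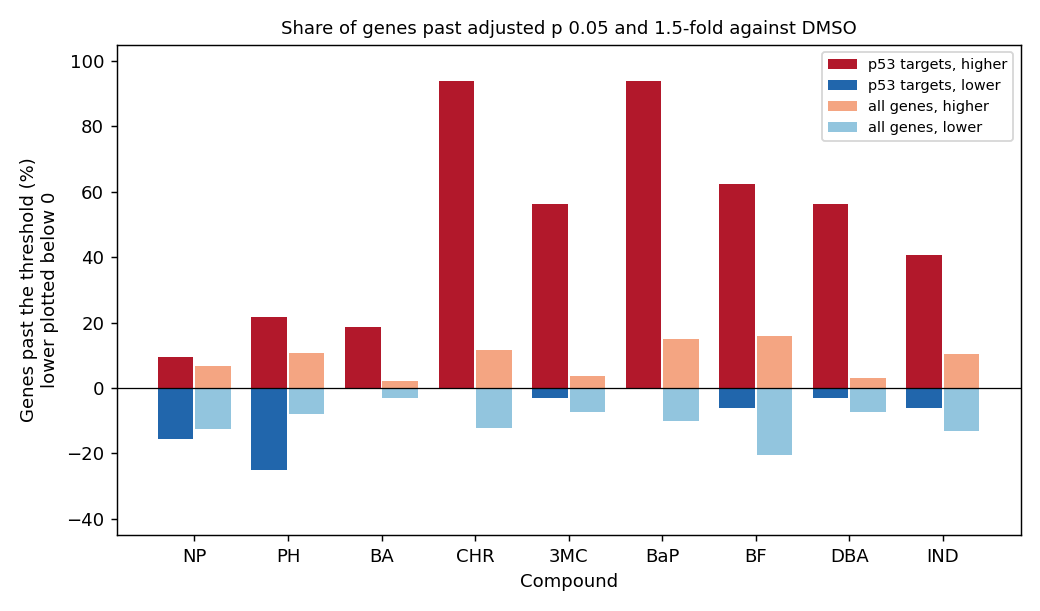
Share of the 32 p53 targets (dark bars) and of all genes tested (light bars) that passed the adjusted p of 0.05 and 1.5-fold against DMSO, by compound; genes that were lower are drawn below 0. The dark bars for higher genes stand far above the light ones with CHR and BaP, where 30 of 32 targets rose, and closer to them with NP, where 3 rose.

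The median log2 ratio over the 32 genes was 1.87 with CHR, 1.56 with BaP, 0.95 with BF, 0.68 with 3MC, 0.64 with DBA, 0.41 with BA, 0.37 with IND, -0.11 with PH and -0.11 with NP. Over all genes tested the median lay between -0.0092 and 0.042 for each compound. BA arrays 2 and 3 had medians of 0.61 and 0.64 over the 32 genes, and BA array 1 had 0.076. CHR gave the highest ratio of the 8 compounds of the shared platform for 19 genes, BaP for 10, and PH for 3 (PLK3, NINJ1 and MDM4). These counts rest on the probe used for each gene, and some places differed on other probes. On those, MDM2 (1.97) and MDM4 (1.53 and 1.13) were highest with BF. CYFIP2, highest with BaP on the probe used, had 1.6 with CHR and 0.90 with BaP on its other probe. Across those 8 compounds, all 32 genes differed by the F test at an adjusted p under 0.05, as did 89.8% of all genes. The offset added in the background step draws ratios of dim spots towards 0, which bears on the dim arrays: with plain background subtraction the medians were 0.78 with DBA, 0.73 with 3MC and -0.16 with NP. Median centring in place of loess changed the split of all genes to 1602 higher and 647 lower with DBA, 614 and 2989 with NP (1161 and 2171 with loess), 3550 and 1329 with BaP (2605 and 1733), and 4244 and 3222 with BF (2769 and 3518).

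**Figure D2:**
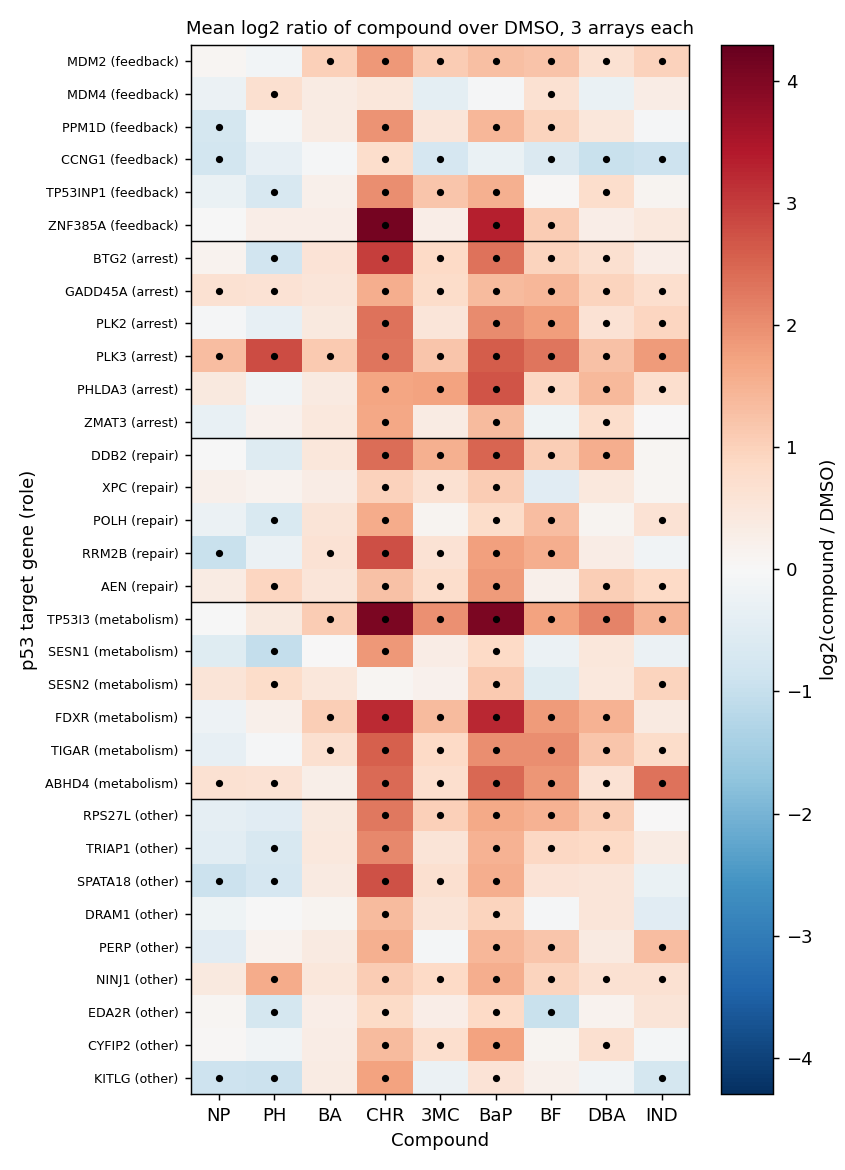
Mean log2 ratio of compound over DMSO for each of the 32 genes (rows, with the role used for grouping) and compound (columns), 3 arrays each; dots mark ratios that passed the adjusted p of 0.05 and 1.5-fold. The CHR and BaP columns are red in nearly every row, up to 4.10 for ZNF385A with CHR, while the NP and PH columns hold both colours and CCNG1 is blue with most compounds.

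The shares of all genes given above for each compound also apply to the counts by group of genes here and below. Among the feedback genes, 5 of 6 rose with CHR, 4 with BaP and 4 with BF. MDM2, the ligase that marks p53 for destruction, rose with 7 of the 9 compounds. MDM2 had log2 ratios of 0.082, 0.10 and 0.12 with NP, -0.043, -0.16 and -0.16 with PH, and 0.71, 1.18 and 1.17 with BA. MDM2 ratios were 2.02, 1.80 and 1.80 with CHR, 1.14, 1.08 and 1.06 with 3MC, and 1.12, 1.37 and 1.43 with BaP. MDM2 stood at 1.23, 1.20 and 1.23 with BF, 0.76, 0.61 and 0.58 with DBA, and 0.97, 1.00 and 1.01 with IND. The ratios were lowest on the NP and PH arrays and highest on the CHR arrays, and MDM2 rose 3.67-fold with CHR (1.87 ± 0.13, mean ± SD of 3 arrays here and below, adjusted p 3.62e-15). This brighter of the 2 MDM2 probes was dim on the DBA arrays, where its Cy5 signals were 96, 84 and 93 intensity units against 49, 50 and 52 for DMSO in Cy3. The other probe differed from it, with 1.97 with BF, 1.19 with CHR, 0.90 with BaP, 0.43 with IND, 0.24 with 3MC and 0.12 with DBA. The rises with IND, 3MC and DBA and the order of BF and CHR thus held on the brighter probe alone.

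MDM4, a relative of MDM2 that blocks p53, departed from the pattern and did not pass with CHR or BaP. MDM4 had log2 ratios of -0.20, -0.23 and -0.35 with NP, 0.65, 0.71 and 0.73 with PH, and 0.016, 0.31 and 0.71 with BA. MDM4 ratios were 0.37, 0.51 and 0.55 with CHR, -0.31, -0.50 and -0.43 with 3MC, and -0.076, 0.048 and -0.12 with BaP. MDM4 stood at 1.00, 0.99 and -0.018 with BF, -0.33, -0.22 and -0.32 with DBA, and 0.47, 0.21 and 0.23 with IND. It rose with PH (0.70 ± 0.044, adjusted p 8.82e-05) and with BF (0.66 ± 0.59, adjusted p 0.000116). BF array 3, near 0, lay apart from BF arrays 1 and 2. Without either of those the BF call was lost (0.49 each), as it was under median centring (0.46). The BF arrays of the probe used thus overlapped those of other compounds. The other MDM4 probes had 1.53 and 1.13 with BF, and with NP 0.78 and 0.38 where the probe used had -0.26. With BaP they had -0.36 and -0.61 where the probe used had -0.048.

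PPM1D, a phosphatase that removes activating phosphates from p53 and its kinases, rose with CHR, BaP and BF and fell with NP. PPM1D had log2 ratios of -0.66, -0.80 and -0.78 with NP, -0.19, -0.058 and -0.034 with PH, and -0.076, 0.61 and 0.56 with BA. PPM1D ratios were 1.74, 2.09 and 1.97 with CHR, 0.55, 0.57 and 0.47 with 3MC, and 1.44, 1.34 and 1.53 with BaP. PPM1D stood at 0.99, 0.97 and 0.87 with BF, 0.58, 0.35 and 0.56 with DBA, and -0.027, -0.10 and 0.027 with IND. The NP arrays were all negative and the CHR arrays all at 1.74 or above, with 1.93 ± 0.18 for CHR (adjusted p 7.95e-14) and -0.75 ± 0.075 for NP (adjusted p 2.63e-07).

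CCNG1, cyclin G1, which brings a phosphatase to MDM2, fell with 5 compounds, more than any other member, and rose with 1. CCNG1 had log2 ratios of -0.80, -0.78 and -0.74 with NP, -0.29, -0.38 and -0.39 with PH, and 0.051, -0.088 and -0.11 with BA. CCNG1 ratios were 0.66, 0.79 and 0.79 with CHR, -0.75, -0.72 and -0.68 with 3MC, and -0.37, -0.16 and -0.32 with BaP. CCNG1 stood at -0.61, -0.63 and -0.57 with BF, -0.97, -0.94 and -1.01 with DBA, and -0.96, -0.68 and -1.06 with IND. Its ratio was above 0 on all 3 CHR arrays and below 0 on every array of NP, PH, 3MC, BaP, BF, DBA and IND. CCNG1 rose 1.68-fold with CHR (0.75 ± 0.073, adjusted p 2.81e-12). It fell with DBA (-0.97 ± 0.036, adjusted p 1.69e-13), IND (-0.90 ± 0.20, adjusted p 3.11e-05), NP (-0.77 ± 0.028, adjusted p 1.67e-12), 3MC (-0.72 ± 0.035, adjusted p 1.25e-11) and BF (-0.61 ± 0.029, adjusted p 3.79e-11). With BaP the ratio was -0.29 ± 0.11, short of 1.5-fold. The BF call was lost under median centring (-0.01), plain subtraction (-0.56) and with the authors' deposited ratios (-0.57), and the 3MC call with the authors' ratios (-0.50). In addition, the IND array 2 spot had a Cy5 signal of 143 intensity units against 2602 and 2230 on IND arrays 1 and 3.

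TP53INP1, a stress protein that helps to activate p53, rose with CHR, BaP, 3MC and DBA and fell with PH. TP53INP1 had log2 ratios of -0.36, -0.29 and -0.20 with NP, -0.59, -0.72 and -0.73 with PH, and 0.36, 0.21 and 0.13 with BA. TP53INP1 ratios were 2.09, 2.04 and 1.89 with CHR, 1.20, 1.14 and 1.28 with 3MC, and 1.48, 1.62 and 1.53 with BaP. TP53INP1 stood at 0.054, 0.042 and 0.099 with BF, 0.78, 0.70 and 0.83 with DBA, and 0.20, -0.084 and 0.19 with IND. The groups did not overlap between CHR, BaP and 3MC, and PH was the only compound whose mean passed as lower (-0.68 ± 0.08, adjusted p 1.66e-10). ZNF385A, a zinc-finger partner of p53, had the widest range over compounds. ZNF385A had log2 ratios of -0.034, -0.03 and 0.013 with NP, 0.30, 0.29 and 0.30 with PH, and 0.035, 0.44 and 0.35 with BA. ZNF385A ratios were 4.06, 4.10 and 4.15 with CHR, 0.26, 0.29 and 0.29 with 3MC, and 3.16, 3.54 and 3.34 with BaP. ZNF385A stood at 1.17, 1.13 and 1.02 with BF, 0.31, 0.21 and 0.35 with DBA, and 0.45, 0.37 and 0.56 with IND. It stood at or above 3.16 on every CHR and BaP array and at or below 0.56 on every array of NP, PH, BA, 3MC, DBA and IND. ZNF385A rose 17.2-fold with CHR (4.10 ± 0.044, adjusted p 3.74e-21), 10.2-fold with BaP (3.35 ± 0.19, adjusted p 3.46e-20) and 2.15-fold with BF (1.11 ± 0.078, adjusted p 7.81e-13).

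**Figure D3:**
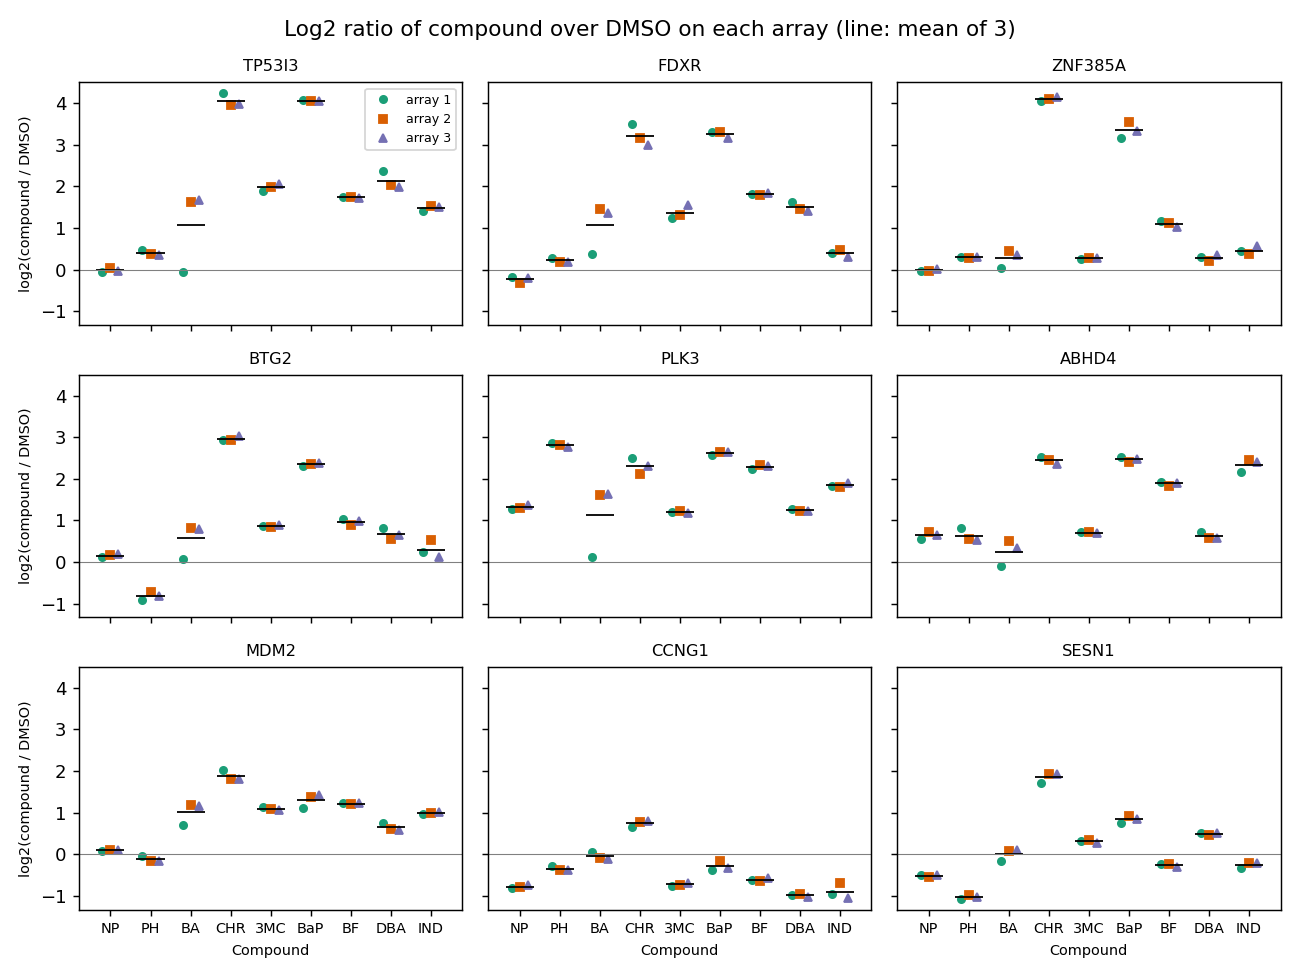
Log2 ratio of compound over DMSO on each array for 9 of the genes, with arrays 1, 2 and 3 as circles, squares and triangles and the mean as a line. Arrays of a compound lie close together except for BA array 1, which is near 0 where BA arrays 2 and 3 are at 1.62 and 1.67 for TP53I3; CCNG1 is above 0 with CHR and below 0 with most other compounds.

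All 6 arrest genes rose with CHR, with BaP and with DBA, 5 with BF, 4 with 3MC, 4 with IND, 2 with PH, 2 with NP and 1 with BA. Without BA array 1 all 6 rose with BA, from 0.63 for PLK2 to 1.63 for PLK3, where 4.53% of all genes rose. BTG2, which slows the entry into S phase, had ratios at opposite ends with CHR and PH. BTG2 had log2 ratios of 0.12, 0.16 and 0.18 with NP, -0.90, -0.72 and -0.81 with PH, and 0.082, 0.83 and 0.80 with BA. BTG2 ratios were 2.93, 2.92 and 3.02 with CHR, 0.86, 0.85 and 0.90 with 3MC, and 2.31, 2.36 and 2.37 with BaP. BTG2 stood at 1.02, 0.88 and 0.99 with BF, 0.82, 0.56 and 0.64 with DBA, and 0.25, 0.52 and 0.12 with IND. Every PH array was negative and every CHR array at 2.92 or above, with 2.96 ± 0.057 for CHR (adjusted p 8.22e-17) and -0.81 ± 0.089 for PH (adjusted p 7.32e-08). PLK3, a polo-like kinase of the stress response, was the only one of the 32 that rose with all 9 compounds. PLK3 had log2 ratios of 1.28, 1.30 and 1.38 with NP, 2.86, 2.82 and 2.77 with PH, and 0.13, 1.62 and 1.64 with BA. PLK3 ratios were 2.49, 2.12 and 2.31 with CHR, 1.20, 1.24 and 1.18 with 3MC, and 2.56, 2.64 and 2.65 with BaP. PLK3 stood at 2.24, 2.33 and 2.30 with BF, 1.27, 1.24 and 1.24 with DBA, and 1.82, 1.81 and 1.90 with IND. PH gave its highest ratio, 2.81 ± 0.045 or 7.03-fold (adjusted p 3.25e-12), and NP gave 1.32 ± 0.053 (adjusted p 4.01e-07). On BA array 1 the ratio was 0.13, and without that array the BA mean was 1.63 (adjusted p 5.99e-15).

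Among the other arrest genes, GADD45A, a stress protein that binds the replication clamp, rose with every compound but BA, by 1.58 ± 0.023 with CHR, 1.42 ± 0.058 with BF and 0.65 ± 0.031 with NP (adjusted p 5.7e-08). Under median centring it fell short of 1.5-fold with NP (0.41) and PH (0.56). On BA arrays 2 and 3 alone it averaged 0.70 (adjusted p 4.64e-12) and passed. PLK2, a second polo-like kinase, rose with CHR (2.34 ± 0.14), BaP (2.02 ± 0.068), BF (1.79 ± 0.02), IND (0.93 ± 0.077) and DBA (0.62 ± 0.069, and 0.58 without DBA array 1, short of 1.5-fold). PHLDA3, a lipid-binding inhibitor of the kinase AKT, was highest with BaP (2.71 ± 0.15), and its 3MC ratio (1.73 ± 0.038) lay beside that with CHR (1.69 ± 0.14). ZMAT3, an RNA-binding protein, rose with CHR (1.65 ± 0.069), BaP (1.36 ± 0.081) and DBA (0.76 ± 0.067) and had -0.18 ± 0.015 with BF. DMSO spots of PLK2 stood above background on 1 of 3 CHR arrays, so its CHR ratio rests on a dim Cy3 signal.

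All 5 repair genes rose with CHR and with BaP, 4 with 3MC and 2 with DBA. DDB2, which finds ultraviolet damage in DNA, rose 5.67-fold with BaP (2.50 ± 0.066), 5.31-fold with CHR (2.41 ± 0.035), 2.96-fold with DBA (1.57 ± 0.096) and 2.86-fold with 3MC (1.51 ± 0.037), and had -0.56 ± 0.12 with PH and 0.089 ± 0.099 with IND. XPC, the sensor of the same repair pathway, rose with BaP (1.09 ± 0.12), CHR (0.98 ± 0.088) and 3MC (0.67 ± 0.006), with -0.49 ± 0.073 with BF. AEN, a nuclease of the nucleus and nucleolus, rose with 6 compounds, BaP the highest (1.84 ± 0.016) and PH among them (0.93 ± 0.064, adjusted p 7.17e-09).

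POLH, the polymerase that copies past damaged bases, rose with CHR, BF, BaP and IND and fell with PH. POLH had log2 ratios of -0.33, -0.20 and -0.20 with NP, -0.67, -0.69 and -0.62 with PH, and 0.07, 0.79 and 0.76 with BA. POLH ratios were 1.46, 1.72 and 1.58 with CHR, 0.087, 0.20 and 0.066 with 3MC, and 0.87, 1.09 and 0.46 with BaP. POLH stood at 1.36, 1.44 and 1.22 with BF, 0.15, 0.067 and 0.094 with DBA, and 0.51, 0.67 and 0.65 with IND. BaP array 3 lay below the other BaP arrays, and the PH arrays lay close together at -0.66 ± 0.034 (adjusted p 1.22e-05). POLH spots were above background on 1 of 3 BF arrays in each dye, and its IND mean fell short of 1.5-fold without IND array 2 (0.58) or under median centring (0.53). RRM2B, a subunit of the enzyme that makes DNA building blocks, rose with 5 compounds and fell with NP. RRM2B had log2 ratios of -0.94, -1.02 and -0.93 with NP, -0.25, -0.28 and -0.18 with PH, and 0.07, 0.87 and 0.92 with BA. RRM2B ratios were 2.67, 2.85 and 2.84 with CHR, 0.67, 0.64 and 0.56 with 3MC, and 1.73, 1.73 and 1.86 with BaP. RRM2B stood at 1.53, 1.57 and 1.54 with BF, 0.29, 0.38 and 0.32 with DBA, and -0.19, -0.065 and -0.21 with IND. NP was at -0.93 or below on all its arrays (-0.96 ± 0.049, adjusted p 1.44e-08), and CHR was at 2.67 or above on all of its own (2.79 ± 0.10, 6.9-fold, adjusted p 6.12e-16). The BA call (0.62 ± 0.48) became 0.89 (adjusted p 5e-12) without BA array 1 and was lost without BA array 2 (0.49) or 3 (0.47).

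Of the 6 metabolism genes, 6 rose with BaP and 5 with CHR. TP53I3, a quinone oxidoreductase first found as a p53-induced gene, had the highest mean ratio over the 9 compounds. TP53I3 had log2 ratios of -0.053, 0.041 and -0.036 with NP, 0.48, 0.39 and 0.37 with PH, and -0.061, 1.62 and 1.67 with BA. TP53I3 ratios were 4.24, 3.96 and 3.97 with CHR, 1.89, 1.99 and 2.06 with 3MC, and 4.08, 4.06 and 4.05 with BaP. TP53I3 stood at 1.76, 1.75 and 1.71 with BF, 2.38, 2.05 and 1.98 with DBA, and 1.40, 1.53 and 1.5 with IND. CHR and BaP arrays were the highest and overlapped, DBA and 3MC arrays came next, and NP arrays lay on both sides of 0. Its unnormalised Cy5 signals on the BaP arrays were 58540, 53610 and 61296 intensity units, against 3158, 2829 and 3290 for DMSO in Cy3. TP53I3 rose 16.7-fold with BaP (adjusted p 4.1e-14), 16.6-fold with CHR (adjusted p 7.21e-14), 4.39-fold with DBA (adjusted p 4.37e-09) and 3.95-fold with 3MC (adjusted p 1.25e-08). The Cy5 spot was saturated on 1 BaP array. With PH the mean was 0.41 ± 0.058 (adjusted p 0.0624), and without BA array 1 the BA mean was 1.64 (adjusted p 2.47e-13). The PH p-value rests on a spread shared by all 24 arrays, BA array 1 included.

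FDXR, the reductase that passes electrons to mitochondrial P450 enzymes, was highest with BaP and CHR. FDXR had log2 ratios of -0.17, -0.32 and -0.21 with NP, 0.29, 0.18 and 0.20 with PH, and 0.39, 1.46 and 1.37 with BA. FDXR ratios were 3.49, 3.17 and 3.00 with CHR, 1.25, 1.31 and 1.56 with 3MC, and 3.30, 3.31 and 3.16 with BaP. FDXR stood at 1.82, 1.81 and 1.84 with BF, 1.63, 1.46 and 1.41 with DBA, and 0.41, 0.48 and 0.30 with IND. Arrays of CHR and BaP overlapped and stood above all others, with 3.26 ± 0.082 for BaP (adjusted p 2.85e-15) and 3.22 ± 0.25 for CHR (adjusted p 6.22e-15). Its Cy5 spot was saturated on 2 BaP arrays and 1 CHR array. The IND ratio, 0.40 ± 0.095, did not reach 1.5-fold, and without BA array 1 the BA mean was 1.42 (adjusted p 2.36e-11).

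ABHD4, a lipase that acts on precursors of N-acylethanolamines, rose with 8 compounds and had its IND ratio close to those with BaP and CHR. ABHD4 had log2 ratios of 0.56, 0.72 and 0.65 with NP, 0.82, 0.55 and 0.54 with PH, and -0.098, 0.50 and 0.35 with BA. ABHD4 ratios were 2.52, 2.46 and 2.36 with CHR, 0.72, 0.71 and 0.69 with 3MC, and 2.53, 2.41 and 2.49 with BaP. ABHD4 stood at 1.93, 1.84 and 1.90 with BF, 0.73, 0.58 and 0.57 with DBA, and 2.15, 2.46 and 2.41 with IND. IND, on its own platform, had 2.34 ± 0.17 (adjusted p 2.76e-07), BaP 2.47 ± 0.061 (adjusted p 4.49e-17) and CHR 2.44 ± 0.078 (adjusted p 1.16e-16). The call was lost with NP under median centring (0.39), with PH without PH array 1 (0.55) or with the authors' deposited ratios (0.53), and with DBA without DBA array 1 (0.58); with the mean of both probes it was lost with NP, PH, 3MC and DBA. A second ABHD4 probe had ratios between -0.19 and 0.12 on the shared platform, but stood above background in Cy5 on no array of NP, BA, 3MC, BaP, BF or DBA. TIGAR, which lowers the flow of sugar through glycolysis, rose with 7 compounds: 2.56 ± 0.046 with CHR, 2.01 ± 0.061 with BF and 2.00 ± 0.32 with BaP. Its BA mean, 0.67 ± 0.48, became 0.95 (adjusted p 1.29e-08) without BA array 1 and lost its call without either of the others.

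The sestrins, stress proteins that restrain the growth kinase mTORC1, split. SESN1 rose with CHR and BaP and fell with PH. SESN1 had log2 ratios of -0.50, -0.54 and -0.49 with NP, -1.06, -0.97 and -1.02 with PH, and -0.16, 0.074 and 0.095 with BA. SESN1 ratios were 1.71, 1.94 and 1.92 with CHR, 0.32, 0.35 and 0.26 with 3MC, and 0.75, 0.91 and 0.86 with BaP. SESN1 stood at -0.24, -0.23 and -0.29 with BF, 0.51, 0.46 and 0.50 with DBA, and -0.31, -0.20 and -0.21 with IND. Each PH array was at or below -0.97 and each CHR array at or above 1.71, with 1.86 ± 0.13 for CHR (adjusted p 1.59e-17) and -1.02 ± 0.047 for PH (adjusted p 2.31e-13). The other SESN1 probe had -1.11 with PH and 1.76 with CHR, but -0.69 with NP, 0.58 with BaP and -0.79 with BF, where the probe used had -0.51, 0.84 and -0.25. SESN2 rose with BaP (1.12 ± 0.088, adjusted p 1.23e-12), IND (0.94 ± 0.067, adjusted p 2.23e-06) and PH (0.79 ± 0.054, adjusted p 5.53e-10). It was one of only 2 members that did not pass with CHR, MDM4 being the other, with 0.085 ± 0.23.

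All 9 of the remaining genes rose with CHR and with BaP, and 4 of them fell with PH. TRIAP1, a small mitochondrial protein that protects from cell death, rose with CHR, BaP, BF and DBA. TRIAP1 had log2 ratios of -0.39, -0.54 and -0.40 with NP, -0.58, -0.68 and -0.82 with PH, and 0.21, 0.62 and 0.53 with BA. TRIAP1 ratios were 2.09, 2.03 and 2.11 with CHR, 0.65, 0.48 and 0.53 with 3MC, and 1.55, 1.37 and 1.60 with BaP. TRIAP1 stood at 0.90, 0.92 and 0.87 with BF, 0.89, 0.78 and 0.88 with DBA, and 0.30, 0.26 and 0.49 with IND. Only the PH mean passed as lower (-0.69 ± 0.12, adjusted p 4.22e-09), and NP, negative on all 3 arrays, had -0.44 ± 0.083. SPATA18, a protein of mitochondrial quality control, ranged most widely of these 9. SPATA18 had log2 ratios of -0.93, -0.91 and -0.90 with NP, -0.76, -0.67 and -0.75 with PH, and -0.0023, 0.55 and 0.64 with BA. SPATA18 ratios were 2.66, 2.76 and 2.79 with CHR, 0.70, 0.79 and 0.61 with 3MC, and 1.47, 1.58 and 1.67 with BaP. SPATA18 stood at 0.62, 0.55 and 0.58 with BF, 0.54, 0.45 and 0.53 with DBA, and -0.30, -0.34 and -0.19 with IND. CHR arrays lay at or above 2.66 (2.74 ± 0.068, adjusted p 2.51e-17), and NP and PH arrays were all negative (-0.91 ± 0.017, adjusted p 8.95e-10, and -0.73 ± 0.048, adjusted p 3.36e-08). The other 2 SPATA18 probes had 0.23 and 0.15 with NP and -0.51 and -0.66 with BF, so the NP fall held on 1 of 3 probes; with CHR they had 2.01 and 1.99. With the mean of the probes the calls with NP (-0.18), PH (-0.58) and 3MC (0.52) were lost.

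EDA2R, a receptor of the tumour necrosis factor family, rose with BaP and CHR and fell with BF and PH. EDA2R had log2 ratios of 0.089, -0.10 and 0.22 with NP, -0.66, -0.88 and -0.70 with PH, and -0.17, 0.51 and 0.54 with BA. EDA2R ratios were 1.03, 0.74 and 0.74 with CHR, 0.20, 0.30 and 0.36 with 3MC, and 0.89, 0.90 and 0.79 with BaP. EDA2R stood at -0.86, -0.95 and -1.04 with BF, 0.12, 0.18 and 0.13 with DBA, and 0.47, 0.59 and 0.58 with IND. The BF and PH arrays were all at -0.66 or below, with -0.95 ± 0.091 for BF (adjusted p 7.9e-09) and -0.75 ± 0.12 for PH (adjusted p 5.73e-07). KITLG, the ligand of the receptor KIT, rose with CHR and BaP and fell with PH, NP and IND. KITLG had log2 ratios of -0.87, -0.93 and -0.88 with NP, -0.57, -1.05 and -1.14 with PH, and 0.32, 0.33 and 0.39 with BA. KITLG ratios were 1.74, 1.72 and 1.72 with CHR, -0.16, -0.25 and -0.29 with 3MC, and 0.53, 0.60 and 0.68 with BaP. KITLG stood at 0.26, 0.26 and 0.17 with BF, -0.23, -0.20 and -0.062 with DBA, and -0.67, -0.84 and -0.77 with IND. PH array 1 was less negative than PH arrays 2 and 3, and the means were 1.73 ± 0.01 for CHR (adjusted p 6.11e-15), -0.92 ± 0.31 for PH (adjusted p 1.84e-10) and -0.90 ± 0.029 for NP (adjusted p 2.4e-10). The other KITLG probes had -0.05 and 0.12 with NP and -0.76 and -1.40 with BF, where the probe used had 0.23. The BaP call (0.60) was lost without BaP array 3 (0.56) and with the mean of the probes (0.47), and the NP call with that mean (-0.27).

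The remaining members rose in part. RPS27L, a relative of a ribosomal protein, rose with CHR (2.28 ± 0.21), BaP (1.62 ± 0.13), BF (1.51 ± 0.027), DBA (1.06 ± 0.15) and 3MC (1.03 ± 0.07), and had 0.022 ± 0.0046 with IND. NINJ1, a cell surface protein, rose with 7 compounds, PH (1.59 ± 0.086) and BaP (1.57 ± 0.088) the highest. PERP, a membrane protein of cell junctions, rose with CHR (1.53 ± 0.031), BaP (1.44 ± 0.077), IND (1.32 ± 0.10) and BF (1.21 ± 0.075). CYFIP2, which takes part in actin remodelling, rose with BaP (1.73 ± 0.034), CHR (1.35 ± 0.15), 3MC (0.73 ± 0.095) and DBA (0.67 ± 0.092); a second probe had -1.52 with PH where the probe used had -0.15. DRAM1, a lysosomal protein of autophagy, rose with CHR (1.37 ± 0.098) and BaP (0.95 ± 0.15) only, and its other probe had -1.41 with NP where the probe used had -0.18.

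Without BA array 1, 17 of the 32 genes rose with BA and the median was 0.59. The 6 genes that rose in the fit of all 3 arrays were among them, and TP53I3 (1.64), PLK3 (1.63), FDXR (1.42) and MDM2 (1.17) were highest. The 11 others were BTG2 (0.82), DDB2 (0.79), POLH (0.77), AEN (0.74), ZMAT3 (0.72), GADD45A (0.70), RPS27L (0.70), PHLDA3 (0.69), PLK2 (0.63), SPATA18 (0.60) and PPM1D (0.58). At an unadjusted p under 0.05, 1 gene was lower. MDM2 stood at 0.71 on BA array 1, where TP53I3 and PLK3 stood at -0.061 and 0.13. SESN2 and TP53INP1 were higher on BA array 1 (0.59 and 0.36) than on arrays 2 and 3 (0.45 and 0.37, and 0.21 and 0.13). When BA was fitted by itself, 0 of the 32 passed in limma, and 18 were higher and 0 lower at an unadjusted p under 0.05.

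**Figure D4:**
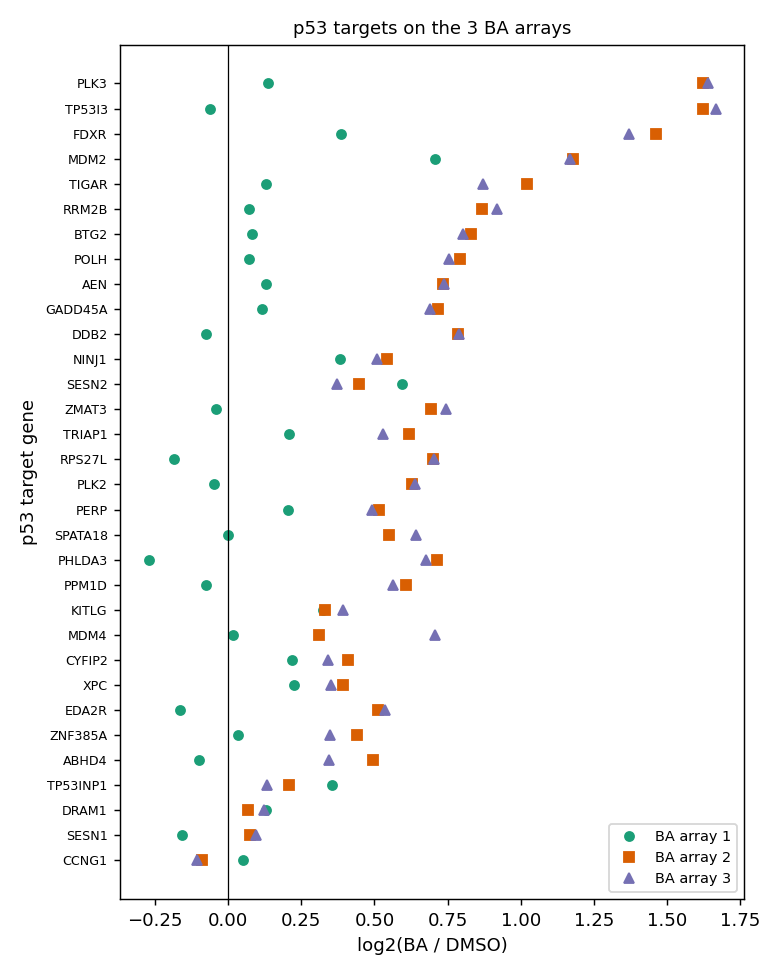
Log2 ratio of BA over DMSO for the 32 genes (rows) on BA array 1 (circles), array 2 (squares) and array 3 (triangles). Arrays 2 and 3 lie together, up to 1.62 and 1.67 for TP53I3, while array 1 lies near 0 for most genes.

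The compounds were then set against each other in 8 pairs, all within one layout of scanner output, with p-values adjusted over all genes and the 8 pairs. Doses are not given, so the compounds are compared as applied. CHR and BA are isomers whose rings are fused in different arrangements. CHR exceeded BA in 29 of the 32 genes and was lower in 0, where 9.28% of all genes were higher and 9.38% lower. The median difference was 1.35, with 3.83 (95% confidence interval 3.64 to 4.01) for ZNF385A (adjusted p 1.68e-17), 2.98 (95% confidence interval 2.43 to 3.53) for TP53I3 (adjusted p 6.33e-09) and 2.39 (95% confidence interval 2.12 to 2.65) for BTG2 (adjusted p 1.7e-12). Without BA array 1, CHR exceeded BA in 27 genes and was lower in 0, with 9.17% of all genes higher and a median difference of 1.31. TP53I3 then differed by 2.41 (adjusted p 1.67e-14) and ZNF385A by 3.71 (adjusted p 3e-18). SESN2 ran the other way in the fit of all arrays, at -0.39 (95% confidence interval -0.57 to -0.20), short of 1.5-fold.

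BaP and BF are also isomers. BaP exceeded BF in 18 genes and was lower in 1, MDM4, with 21.8% and 13.5% of all genes. TP53I3, whose Cy5 spot was saturated on 1 of the 3 BaP arrays in this and every contrast with BaP, so that differences from BF and PH may be understated, differed by 2.32 (95% confidence interval 1.77 to 2.88) (adjusted p 2.51e-07), ZNF385A by 2.24 (95% confidence interval 2.06 to 2.43) (adjusted p 2.19e-14) and EDA2R, which rose with BaP and fell with BF, by 1.81 (95% confidence interval 1.53 to 2.09) (adjusted p 3.36e-10). GADD45A did not pass, with a difference of -0.05 (95% confidence interval -0.26 to 0.16), nor did TIGAR, with -0.015 (95% confidence interval -0.34 to 0.31). MDM2 did not pass on its brighter probe, with 0.089 (95% confidence interval -0.12 to 0.30). The other MDM2 probe had 0.90 with BaP and 1.97 with BF. MDM4 differed by -0.71 (95% confidence interval -1.09 to -0.32) (adjusted p 0.00322), a call lost without BF array 1 (-0.53) or 2 (-0.54) and under median centring (-0.41). The other MDM4 probes had -0.36 and -0.61 with BaP, and 1.53 and 1.13 with BF. The second of these stood above background in Cy3 on 0 BF arrays.

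BaP, larger than CHR by a ring, was higher than CHR in PHLDA3 and SESN2 and lower in 9 genes, with 13.9% and 7.11% of all genes. PHLDA3 differed by 1.02 (95% confidence interval 0.68 to 1.36) (adjusted p 2.21e-05) and SESN2 by 1.03 (95% confidence interval 0.85 to 1.22) (adjusted p 4.32e-09). At the adjusted p alone 5 were higher and 17 lower, with 30.0% and 24% of all genes. The 9 that were lower with BaP than with CHR included SPATA18 at -1.17 (95% confidence interval -1.39 to -0.94) (adjusted p 1.05e-08), KITLG at -1.13 (95% confidence interval -1.33 to -0.92) (adjusted p 3.71e-09) and CCNG1 at -1.03 (95% confidence interval -1.16 to -0.91) (adjusted p 1.17e-11). TP53I3 did not pass, at 0.0045 (95% confidence interval -0.55 to 0.56), nor did FDXR, at 0.036 (95% confidence interval -0.34 to 0.41), but saturated spots limit both: TP53I3 on 1 BaP array, and FDXR on 2 BaP arrays and 1 CHR array.

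BF was lower than CHR in 23 genes and higher in 0 (0 also at an unadjusted p under 0.05), with 17.0% of all genes lower and 11.2% higher. ZNF385A differed by -3.00 (95% confidence interval -3.18 to -2.81) (adjusted p 3.91e-16), SESN1 by -2.11 (95% confidence interval -2.25 to -1.96) (adjusted p 1.75e-15) and CCNG1 by -1.35 (95% confidence interval -1.48 to -1.22) (adjusted p 1.69e-13). MDM2 differed by -0.66 (95% confidence interval -0.87 to -0.44) (adjusted p 1.49e-05) on the brighter probe, while under plain subtraction and quantile scaling, which made the other probe the brighter one, it was higher with BF than with CHR by 0.89 and 0.78. Without CHR array 1 the MDM2 difference was -0.58, short of 1.5-fold.

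BaP, larger than PH, was higher in 27 genes and lower in MDM4, with 11.9% and 9.82% of all genes. The difference was 3.65 (95% confidence interval 3.10 to 4.20) for TP53I3 (adjusted p 2.73e-10, with the saturated BaP spot), 3.16 (95% confidence interval 2.90 to 3.42) for BTG2 (adjusted p 2.26e-14) and 3.06 (95% confidence interval 2.77 to 3.36) for DDB2 (adjusted p 2.16e-13). PLK3, NINJ1 and CCNG1 did not pass, with differences of -0.20 (95% confidence interval -0.68 to 0.29), -0.018 (95% confidence interval -0.17 to 0.13) and 0.064 (95% confidence interval -0.065 to 0.19).

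DBA and 3MC differed in 0 of the 32 genes by limma, with 1.35% of all genes higher and 0.938% lower. At an unadjusted p under 0.05 with no fold required, 6 genes were higher and 6 lower, and at the adjusted p alone 5 were higher and 5 lower, with 9.20% and 12.9% of all genes. PERP had the largest positive difference, 0.47 (95% confidence interval 0.28 to 0.67), and MDM2 the largest negative, -0.44 (95% confidence interval -0.65 to -0.23), so for no gene did the estimate reach 1.5-fold. TP53I3 differed by 0.15 (95% confidence interval -0.40 to 0.71), an interval that includes 1.5-fold in the positive direction. Its width rests on a spread shared by all 24 arrays, BA array 1 among them, and not on the DBA and 3MC arrays alone. Against NP, the smallest compound, DBA was higher in 19 genes and lower in 0, with 6.83% and 4.50% of all genes, and 3MC was higher in 18 and lower in 0, with 5.07% and 3.14%. At an unadjusted p, 1 gene was lower in each of these contrasts. TP53I3 differed by 2.15 (95% confidence interval 1.60 to 2.71) between DBA and NP (adjusted p 7.3e-07) and by 2.00 (95% confidence interval 1.44 to 2.55) between 3MC and NP (adjusted p 2.01e-06). RRM2B, which rose with 3MC and fell with NP, differed by 1.58 (95% confidence interval 1.30 to 1.86) (adjusted p 3.25e-09).

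**Figure D5:**
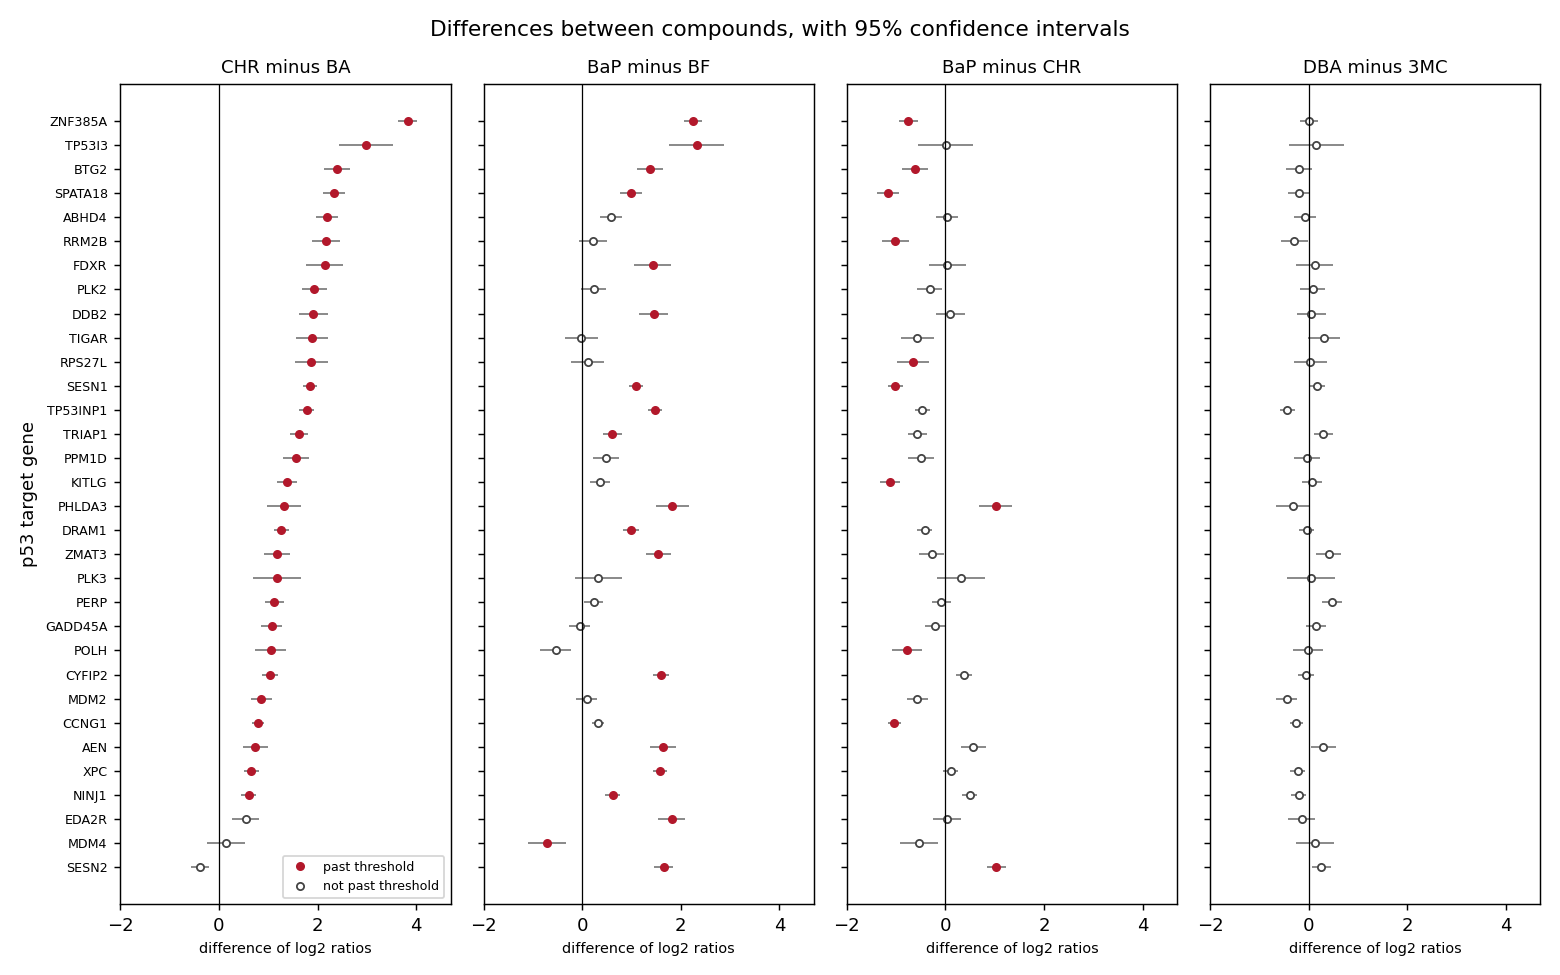
Difference of log2 ratios between compounds for the 32 genes (rows, ordered by CHR minus BA), with 95% confidence intervals; filled points passed the adjusted p of 0.05 and 1.5-fold. Nearly all points lie right of 0 for CHR minus BA, 9 filled points lie left of 0 for BaP minus CHR, and none is filled for DBA minus 3MC.

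Other genes of the pathway were read from lists chosen, like the 32, with earlier results of these data known. Of 17 genes that control p53, CHR raised 2 and lowered 4, and BaP raised 1 and lowered 3. CHEK1, a checkpoint kinase, fell with 8 of the 9 compounds, by 1.51 with BaP on the log2 scale (adjusted p 5.88e-14). CDKN2A, whose locus encodes an inhibitor of MDM2, rose with BF (2.05 ± 0.067, adjusted p 8.02e-13), BaP, CHR and IND and fell with NP; with IND its DMSO spots were not well above background and the rise was at least 2.82-fold.

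Of 17 death targets of p53, 10 rose and 0 fell with CHR, 10 rose and 0 fell with BaP, and 7 rose and 3 fell with BF, with list medians of 0.63, 0.77 and 0.43. At an unadjusted p under 0.05, 3 were lower with CHR and 1 with BaP. FAS, a death receptor, rose most with CHR (3.15 ± 0.19, adjusted p 6.84e-13) and fell with NP (-1.13 ± 0.097, adjusted p 4.82e-06) and PH (-0.82 ± 0.015, adjusted p 0.000232). BBC3, the cell death protein PUMA, rose with NP (1.04 ± 0.082, adjusted p 9.03e-13), PH (0.93 ± 0.069, adjusted p 6.39e-12), IND (0.76 ± 0.073, adjusted p 6.86e-06) and DBA (0.63 ± 0.15, adjusted p 5e-09), and fell with BF (-0.59 ± 0.051, adjusted p 4.4e-09). Of 25 other p53 targets, 19 rose with CHR and 20 with BaP, and 0 fell with either, with medians of 1.66 and 1.36; at an unadjusted p under 0.05, 1 was lower with CHR and 1 with BaP. Among these, CDKN1A, the inhibitor p21, had ratios of 4.37, 4.41 and 4.34 with BaP, where its Cy5 spot was saturated on all 3 arrays so that the rise was at least 20.7-fold, and 4.60, 4.21 and 4.15 with CHR, where it was saturated on 2 of 3 arrays. With NP CDKN1A had 0.35, 0.33 and 0.24 and did not pass.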

How the data were processed

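Members and gene lists were chosen with earlier results of these data known. The authors deposited scanner output for 27 arrays: per the file headers, spot and background intensity in Cy5 (635 nm) and Cy3 (532 nm), not normalized, and the percent of saturated pixels per spot. The authors also deposited log2 ratios; 20 of their columns could be tied to the arrays and served as an alternative, and 7 were not used. Background was corrected by normexp (offset 50) and ratios by loess within each array, with control spots and bad flags at weight 0 (limma 3.58.1, R 4.3.3). Spots flagged only as not found kept their weight. Replicate spots were averaged. A probe was kept if, for any compound, at least 2 of the 3 arrays showed it over background by 2 SDs in either dye, and the brightest probe stood for a gene. Gene names came from the files and, by transcript, from RefSeq tables, giving names to 26787 of the 41000 probes used for IND and 26425 of the 41000 used for the other compounds.

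A mean per compound was fitted over 24 arrays, with IND on its own platform fitted alone, and tested by limma's moderated test with Benjamini-Hochberg adjustment. Each gene had a single spread shared by the 24 arrays, BA array 1 included. Where BA array 1 departs from BA arrays 2 and 3, it therefore widens the intervals and raises the p-values of other compounds too. This is not a dye-swapped design. In the self-test on simulated data, all log2 changes of 2 were recovered (100%), and of those of 1, 97% with BA, 99% with PH, 92% with IND and 100% with the others. The simulated noise was independent between arrays, with a single SD per gene for all compounds of a platform. It held no outlying array such as BA array 1, so the BA figure does not describe the BA arrays as measured. The number of arrays, 3 per compound, limits the precision. Full values are given for CCNG1, MDM2 and TP53I3, for the members with the 5 highest and 5 lowest mean ratios and the 5 widest ranges over compounds, and for members that passed in opposite directions. Alternatives covered background, normalization, filter, probe choice, array weights, separate fits, a replicate block, the authors' ratios, the fold threshold and leaving out each array. After seeing the data, fits within one file layout and without BA array 1 were added.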

Additional observations from a re-analysis of the deposited data

Results flagged for a closer look

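Genes are listed here if they passed as higher than DMSO with a compound and as lower with another, and if the difference between those compounds also passed. EDA2R was higher with BaP than with BF by 1.81 on the log2 scale, and lower with BF than with CHR (-1.78). CCNG1 was lower with BF than with CHR (-1.35); its BF ratio was -0.01 under median centring, short of the call.

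Between BaP and PH, 8 genes had opposite calls. The differences of BaP minus PH were 3.16 for BTG2, 2.30 for SPATA18, 2.22 for TP53INP1, 2.20 for TRIAP1, 1.86 for SESN1, 1.61 for EDA2R, 1.52 for KITLG and 1.47 for POLH. The BaP call of KITLG was lost without BaP array 3 (0.56) and with the mean of its probes (0.47). Between 3MC and NP, the difference was 1.61 for SPATA18 and 1.58 for RRM2B. The NP fall of SPATA18 was seen on 1 of its 3 probes. Passing the adjusted p of 0.05 in limma was thus a condition for this list and not a further result.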

How the results depend on the processing

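Of 332 alternative counts of called members, 318 stayed within 1.5 times the reported count. Of 5461 alternative gene ratios of called members, 5376 kept direction and call, 82 kept direction and lost the call, and 3 reversed. These totals include alternatives that could not differ or could differ little. The adjusted p alone reuses the reported ratios, so a gene already called could not lose its call. Quantile scaling and the filter settings had a median change of ratio of 0 with every compound. MDM2 reversed between BF and CHR, from the reported -0.66, to 0.89 with plain background subtraction, 0.78 with quantile scaling and 0.060 with the mean of its probes; the other probe runs the other way. For DBA against 3MC, 0 members were called in the main setting, 1 with plain subtraction, 1 with median centring and 2 with the authors' ratios (29 members tested). For BA, 6 were called (353 of all genes higher and 536 lower), against 19 with median centring (1049 and 1218 of all genes), 15 with array weights (715 and 986), 0 when BA was fitted alone (0 of all genes, and 18 members higher and 0 lower at an unadjusted p), and 4 to 17 when single arrays were left out, 17 without BA array 1. The adjusted p alone gave 29 for BA, 21 for NP, 23 for PH, 30 for 3MC, 25 for IND, 22 for BaP against CHR and 10 for DBA against 3MC; the shares of all genes stand beside these counts above. Under median centring the median change of a gene's ratio was -0.14 with NP and 0.11 with BA. No shared effect of the array number was seen on average. Residuals of same-numbered arrays correlated at a mean of 0.00284 (84 pairs, from -0.204 to 0.146) and of others at -0.00113 (168 pairs, from -0.143 to 0.192). Whether same-numbered arrays shared cultures or DMSO RNA cannot be told from these values. The replicate block, run for the 8 compounds of the shared platform and their pairs, left those counts as reported, for example 30 with CHR and 30 with BaP. Dim arrays (DBA, 3MC and NP) limit how well low signals are measured there.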
